A study of Mus musculus with 6 samples.

Results

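Cells that had left cultured fetal thymus lobes were compared with cells that stayed inside, both exposed to the dioxin TCDD. The comparison took the 3 arrays with TCDD out of 6: 2 arrays of TCDD emigrants and 1 array of TCDD thymocytes. The other 3 arrays repeat the comparison with the solvent dioxane, as 2 arrays of dioxane emigrants and 1 of dioxane thymocytes, and were used to show where TCDD cultures differ. All cells were CD4-CD8- (double negative, DN) cells of C57BL/6 mice, from fetal lobes dissected on gestation day 15 and kept as organ cultures for 6 days, to the equivalent of gestation day 21. TCDD (2,3,7,8-tetrachlorodibenzo-p-dioxin) was given at 10 nM in medium renewed every 2 days. The dioxane concentration, 0.1% by volume, is stated for the dioxane thymocytes alone. Emigrants were recovered by flushing the lobes 2 times with 200 µl of buffer, and thymocytes by grinding washed lobes. DN cells were then sorted with magnetic beads against CD4 and CD8, with a stated purity of over 95%, and RNA of pooled cells was amplified before hybridisation. Such a sort keeps any cell without CD4 and CD8, whatever its lineage.

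TCDD is a ligand of the aryl hydrocarbon receptor (AHR), a cytoplasmic receptor that moves to the nucleus when bound and, with its partner ARNT, binds short DNA elements near genes such as Cyp1a1. DN cells are the earliest thymocytes: they come in as multipotent progenitors, take on the T lineage under Notch signals, and at the DN3 stage rearrange the T-cell receptor beta chain and test it with the pre-T alpha chain. Fetal thymus also holds macrophages and other myeloid cells, which take up dying thymocytes.

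The core of the AHR-ARNT binding element, GCGTG or its reverse complement CACGC, was looked for on both strands of promoter windows. It is marked here in 3 AHR targets that were lower in both TCDD emigrant arrays than in TCDD thymocytes. The sequences are RefSeq promoters of build GRCm38.p6, 300 bases each, written 5′ to 3′ on the gene's own strand with the core in capitals. The Cyp1a1 window is chr9:57697363-57697662 on the plus strand, the Cyp1b1 window chr17:79715012-79715311 on the minus strand, and the Scin window chr12:40134179-40134478 on the minus strand.
Cyp1a1: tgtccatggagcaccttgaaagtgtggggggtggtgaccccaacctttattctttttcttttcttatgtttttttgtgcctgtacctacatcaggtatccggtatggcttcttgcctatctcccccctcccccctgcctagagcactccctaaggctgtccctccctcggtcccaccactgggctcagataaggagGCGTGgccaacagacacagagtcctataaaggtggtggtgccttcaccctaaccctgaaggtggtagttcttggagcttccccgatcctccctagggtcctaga
Cyp1b1: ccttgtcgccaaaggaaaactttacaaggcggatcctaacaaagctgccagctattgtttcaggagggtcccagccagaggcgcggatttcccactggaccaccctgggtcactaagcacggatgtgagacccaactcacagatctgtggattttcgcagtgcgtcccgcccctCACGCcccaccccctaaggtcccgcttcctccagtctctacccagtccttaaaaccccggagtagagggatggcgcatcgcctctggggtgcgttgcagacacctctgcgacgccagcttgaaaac
Scin: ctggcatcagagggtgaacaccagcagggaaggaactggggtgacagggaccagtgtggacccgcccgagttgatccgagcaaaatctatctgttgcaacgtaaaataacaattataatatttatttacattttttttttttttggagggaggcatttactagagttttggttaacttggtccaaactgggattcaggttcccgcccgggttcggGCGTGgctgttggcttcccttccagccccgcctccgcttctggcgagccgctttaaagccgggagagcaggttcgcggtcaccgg
Each of these 3 windows held 1 match. Of the 12 AHR targets measured, 10 had a window, and 6 of those held a match. Of all 32851 windows, 32.4% held a match. The target count is per gene and the percentage per window, so they cannot be set against each other. Whether matches were more frequent in AHR targets was not tested. A match is only a run of letters and does not show binding.

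The values are log2 expression values, so a difference of 1 is a 2-fold difference. Each emigrant array was set against the same TCDD thymocyte array, so both differences carry any error of that array. The 3 TCDD arrays had medians over all probe sets, controls included, between 4.84 and 4.88. Their highest bacterial control probe set, which mouse RNA should not bind, read 4.92 on TCDD emigrant array 1, 4.34 on array 2 and 4.46 on the thymocyte array. A gene at or under that level is called dim here, and where the lower side was dim the difference is only a bound, given as "at least" or "or further down". The gap between 3' and 5' probe sets of actin, larger where RNA is shorter, was 3.77 and 3.36 in TCDD emigrants against 4.15 in TCDD thymocytes. It was 3.06 and 3.01 in dioxane emigrants against 3.48 in dioxane thymocytes. The same gap of Gapdh was 5.60 and 4.75 in TCDD emigrants against 5.86 in TCDD thymocytes. In dioxane emigrants it was 4.75 and 4.69 against 6.10 in dioxane thymocytes. The largest gap was thus in TCDD thymocytes by actin and in dioxane thymocytes by Gapdh, and the part of RNA length in the results was not tested.

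The labels were checked first. Ptprc (CD45), carried by white blood cells, read 11.16 and 11.76 in TCDD emigrants against 10.96 in TCDD thymocytes. Cd4 read 4.98, 4.93 and 5.10 and Cd8a 4.62, 4.62 and 4.93 on the same arrays, near the level of the bacterial controls. The CD3 chains, which carry T-cell receptor signals, were unequal between the emigrant arrays: Cd3g read 5.97 and 9.08 in emigrants against 9.61 in thymocytes. Thy1, a surface marker of T-lineage cells, read 4.90 and 8.68 against 8.60. TCDD emigrant array 1 was thus low for T-lineage markers that array 2 held at about the thymocyte level. The dioxane arrays had a like split. Cd3g read 6.72 and 8.97 in dioxane emigrants against 9.14 in dioxane thymocytes, and Thy1 5.69 and 9.07 against 9.70. In bulk RNA, fewer cells of a type and less RNA per cell cannot be told apart.

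Of 12393 genes, 194 (1.57%) were at least 2-fold higher in both TCDD emigrant arrays than in TCDD thymocytes and 105 (0.847%) at least 2-fold lower in both. By the smaller of the 2 array differences, the largest were those of Ccl6, Lyz2, Ccl9 and Apoe among the higher genes and of Ptcra, Cntnap2 and Dsp among the lower genes. Taken on its own, array 1 had 585 genes at least 2-fold higher (4.72%) and 524 lower (4.23%), and array 2 had 579 higher (4.67%) and 242 lower (1.95%). A further 39 genes (0.315%) were at least 2-fold higher in either emigrant array and at least 2-fold lower in the other. In 31 of the 194 higher genes the thymocyte value was dim, and in 13 of the 105 lower genes both emigrant values were. The 2 emigrant arrays correlated with each other at r = 0.932 over genes, while array 1 and array 2 each correlated with the thymocyte array at r = 0.926 and r = 0.954, values that share arrays and are given as a description.

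**Figure D1:**
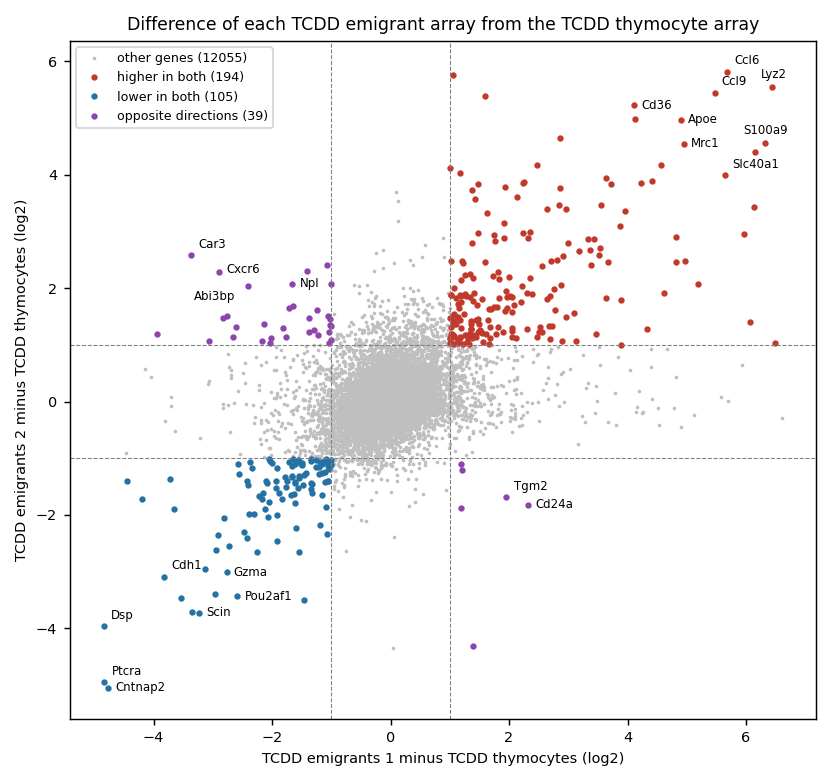
Log2 difference of TCDD emigrant array 1 (horizontal) and array 2 (vertical) from the TCDD thymocyte array, 1 point per gene, with dashed lines at a 2-fold difference. The 194 genes higher in both lie at the upper right, the 105 lower in both at the lower left, and the 39 with opposite directions at the other corners.

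Across all genes, limma (4 group means, all 6 arrays) called none of 12393 genes (0%) between TCDD emigrants and TCDD thymocytes at an adjusted p under 0.05, with a smallest adjusted p of 0.109. At an unadjusted p under 0.05 it had 344 genes, 184 higher and 160 lower in emigrants, where 620 would be expected by chance alone. The spread came from the 2 emigrant pairs, and the lone thymocyte array was assumed to vary like them. Whether same-group arrays stem from different cultures is stated nowhere in the labels; the p-values thus reflect only how far these arrays scatter, which may be technical, and the small number of arrays limits the precision. Each difference below is therefore a measured difference between arrays and not a called change.

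Macrophage and dendritic-cell genes were higher in TCDD emigrants nearly throughout their list. Of 27 measured, 20 were at least 2-fold higher in both emigrant arrays and 0 lower, with medians of 2.86 and 2.67 where all genes had -0.04 and -0.08. Their mean level was 9.03 over both TCDD emigrant arrays against 6.30 in TCDD thymocytes. Lyz2, the lysozyme of macrophages and granulocytes, read 11.93 and 11.04 in emigrants against 5.49 in thymocytes, a mean difference of 5.99 ± 0.45 (SE; limma adjusted p = 0.183). Apoe, the lipid carrier that macrophages secrete, read 9.30 and 9.37 against 4.40, at least 4.84 and 4.91 higher (adjusted p = 0.109). Both emigrant arrays lay far above the thymocyte array for these genes, and the emigrant arrays lay close to each other for Apoe.

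Cd36, Mrc1, Cd68, Clec4d, Slc40a1 and Lyz1 were among the 12 genes highest in both emigrant arrays, a choice that fixes their order of arrays. They were grouped here after their values were seen, and Mrc1, Cd68, Clec4d and Lyz1 are also counted in the macrophage list. Cd36, which takes up oxidised lipids and dying cells, read 7.70 and 8.82 in TCDD emigrants against a dim 3.59 in TCDD thymocytes, at least 3.24 and 4.35 higher. Mrc1, the mannose receptor, read 9.07 and 8.66 against a dim 4.12, at least 4.61 higher in array 1. Cd68, a glycoprotein of macrophage lysosomes, read 8.69 and 9.54 against 4.57. All 3 genes were at or near the dim range in thymocytes and far above it in both emigrant arrays, and array 2 was the higher for Cd36 and Cd68. The lectin gene Clec4d, a sensor of fungal and mycobacterial glycolipids, read 9.73 and 9.35 against 5.17. Slc40a1 (ferroportin), which exports iron from macrophages, read 10.58 and 8.93 against 4.94, a mean difference of 4.81 that was 2.98 with the mean of its probe sets. Array 1 was the higher of the emigrant arrays for Clec4d and Slc40a1. Csf1r, the receptor for the macrophage growth factor, read 12.39 and 10.47 against 7.57, so thymocytes also held it well above the controls. The complement gene C1qa read 7.82 and 7.47 against 4.91, and Lyz1, a close relative of Lyz2 that its probes may not tell apart, read 12.60 and 12.09 against 8.19.

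Lysosomal genes were higher in emigrants as well. Of 24 measured, 15 were at least 2-fold higher in both arrays and 0 lower, with medians of 1.82 and 1.83. Ctsb, a cysteine protease, read 10.79 and 11.21 in TCDD emigrants against 7.82 in TCDD thymocytes. Ctsd, the main aspartic protease of lysosomes, read 9.06 and 10.28 against 7.13. Lamp1, a main glycoprotein of the lysosomal membrane, read 10.87 and 10.69 against 8.64, a mean difference of 2.13 ± 0.31 (limma adjusted p = 0.66). Both emigrant arrays lay above thymocytes for these 3 genes, with array 2 the higher for the proteases. The cathepsin Ctse was an exception between the arrays, at 9.60 and 5.38 against 5.80.

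S100 and annexin genes, which code for calcium-binding proteins, had 6 of 14 measured at least 2-fold higher in both arrays and 0 lower, with medians of 0.97 and 1.77. S100a8 and S100a9, the subunits of calprotectin, were among the largest differences of all genes. S100a9 read 11.39 and 9.62 in TCDD emigrants against 5.07 in TCDD thymocytes, and S100a8 read 11.39 and 9.64 against 5.23. Array 1 was the higher of the emigrant arrays for both subunits. Anxa1, a glucocorticoid-induced regulator of inflammation, read 10.67 and 10.58 against 7.12. Anxa3 read 9.62 and 9.03 against 5.66, a mean difference of 3.66 ± 0.38 (limma adjusted p = 0.451).

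Chemokine ligands were split between family members. Of 24 measured, 5 were at least 2-fold higher in both emigrant arrays and 1 lower, with medians of -0.13 and 0.79. Ccl6 and Ccl9 are CC chemokines of mouse myeloid cells. Ccl6 read 11.47 and 11.60 in TCDD emigrants against 5.78 in TCDD thymocytes, a mean difference of 5.75 ± 0.30 (limma adjusted p = 0.109). Ccl9 read 10.59 and 10.57 against 5.12, a mean difference of 5.46 ± 0.34 (limma adjusted p = 0.121), which was 2.98 with the mean of its probe sets. The emigrant arrays nearly coincided for both genes and lay far above thymocytes. Pf4, a chemokine of platelets and macrophages, read 9.56 and 11.35 against 6.70. The neutrophil attractant Cxcl2 read 10.60 and 9.27 against 7.94, and the inflammatory chemokine Ccl3 7.06 and 9.43 against 5.59. For each of these the emigrant arrays were unequal but both above thymocytes. The lower member was Ccl5, made by T and NK cells, at 9.94 and 9.73 against 11.28. Several others were higher in array 2 alone: Ccl2, which attracts monocytes, read 3.89 and 6.77 against 4.14.

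**Figure D2:**
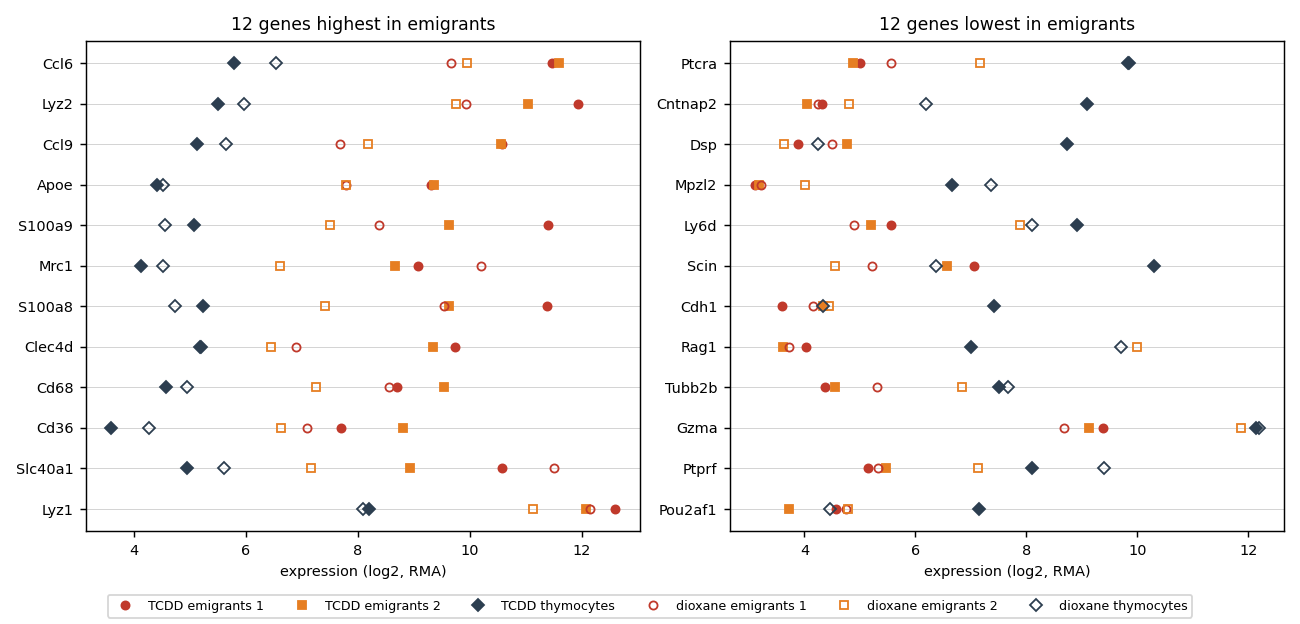
Log2 level on each of the 6 arrays for the 12 genes with the largest differences in each direction, ranked by the smaller of the 2 differences under TCDD (filled symbols TCDD, open symbols dioxane). In the left panel both filled emigrant symbols lie above the filled thymocyte diamond for every gene, and in the right panel both lie below it. The choice of genes fixes this order.

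Neutrophil and mast-cell genes were higher mainly in TCDD emigrant array 1. Of 23 measured, 16 were at least 2-fold higher in array 1 and 9 in array 2, all 9 of these in both, with medians of 2.47 and 0.07. Ngp, a neutrophil granule protein, was high in both emigrant arrays, at 12.34 and 9.33 against 6.38 in TCDD thymocytes. Mpo, the myeloperoxidase of granulocyte precursors, read 10.06 and 4.72 against 5.16, and the granule protease Ctsg read 10.15 and 4.65 against 4.57. For Mpo and Ctsg, array 2 was at the thymocyte level. Red-cell genes showed the same split: 9 of 15 measured were at least 2-fold higher in array 1 and 0 in array 2, with medians of 1.68 and -0.19. Ermap, an erythroid membrane protein, read 9.03 and 4.12 against 4.24. The dioxane arrays had a like split, with erythroid medians of 2.14 in emigrant array 1 and -0.06 in array 2. Array 1 of the emigrants thus carried granulocyte precursor and red-cell genes that array 2 and thymocytes lacked or held at low levels, and the part of these cells in other differences of array 1 was not tested.

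Several genes of the DN2 and DN3 stages were lower in TCDD emigrants. Of 25 measured, 6 were at least 2-fold lower in both arrays and 0 higher, 15 were lower by that much in array 1 and 7 in array 2, and the medians were -1.42 and -0.40. The 6 were Ptcra, Rag1, Il2ra, Dntt, Notch1 and Dtx1. Ptcra, the pre-T alpha chain that pairs with a newly made beta chain, read 5.00 and 4.87 in TCDD emigrants against 9.83 in TCDD thymocytes, a mean difference of -4.89 ± 0.70 (limma adjusted p = 0.66). Rag1, a subunit of the recombinase that cuts receptor genes, read a dim 4.03 and 3.61 against 7.00, differences of -2.08 and -2.67 or further down. Dntt, which adds bases at the cut ends, read 7.65 and 5.61 against 9.10. Both emigrant arrays lay below the thymocyte array in each of these genes. With dioxane 4 of the 25 were at least 2-fold lower in both emigrant arrays, with medians of -1.92 and -0.33. Ptcra read 5.56 and 7.16 in dioxane emigrants against 9.86 in dioxane thymocytes, lower in both as with TCDD. Rag1 and Dntt split between the dioxane emigrant arrays: Rag1 read 3.72 and 9.99 in dioxane emigrants against 9.70 in dioxane thymocytes, and Dntt 7.52 and 11.96 against 12.36. Emigrant array 2 was thus low for Rag1 and Dntt with TCDD and near the thymocyte level with dioxane. The mean TCDD difference of Rag1 was -3.18 ± 2.54 (limma adjusted p = 1), and its difference between treatments was not called either.

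Notch1, the receptor that commits progenitors to the T lineage, read 6.75 and 7.06 in TCDD emigrants against 9.05 in TCDD thymocytes. Its target Dtx1 read 6.76 and 6.74 against 7.77. Il2ra (CD25), a marker of DN2 and DN3 cells, read 3.87 and 6.35 against 8.07. Both emigrant arrays lay below thymocytes for these 3 genes, and they differed widely from each other for Il2ra. Il7r, the survival receptor of early thymocytes, ran in opposite directions in the emigrant arrays, at 7.12 and 11.43 against 9.96. Transcription factors of the list differed from each other. Bcl11b, which seals T-lineage commitment, read 3.87 and 6.30 against 6.09, and Gata3 4.01 and 6.78 against 6.59, both low in array 1 alone. Tcf12 read 7.64 and 8.35 against 7.89, and Hes1, a Notch target, was lowest in array 2, at 6.10 and 5.57 against 6.55. The same 2 arrays held the markers of granulocytes and red cells unequally, as given above. Of later thymocyte genes, 0 of 15 measured were at least 2-fold apart in both arrays, with medians of -0.29 and -0.13. That count cannot be told apart from the shares over all genes, 1.57% higher and 0.847% lower.

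AHR targets went in both directions. Of 12 measured, 3 were at least 2-fold higher and 3 at least 2-fold lower in both TCDD emigrant arrays than in TCDD thymocytes, with medians of -0.11 and -0.28. The lower 3 were Cyp1a1, Cyp1b1 and Scin. Cyp1a1, the cytochrome P450 most used as a readout of AHR activity, read a dim 4.22 and 5.98 in TCDD emigrants against 7.88 in TCDD thymocytes, and 3.96 and 3.84 in dioxane emigrants against 3.99 in dioxane thymocytes. Cyp1b1, a related P450, read 5.90 and 8.95 against 10.35 with TCDD, and 4.66 and 4.72 against 6.73 with dioxane. The TCDD thymocyte array was the highest of the 6 for both P450 genes, and TCDD emigrant array 2 the next. Scin, which severs actin filaments, read 7.06 and 6.57 against 10.30 with TCDD, and 5.21 and 4.55 against 6.37 with dioxane. Every TCDD value of Scin and Cyp1b1 was above the dioxane value of the same cell source and array number.

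The feedback repressors of the pathway were unequal between the emigrant arrays. Ahrr, the AHR repressor, read a dim 4.04 and 7.50 in TCDD emigrants against 7.84 in TCDD thymocytes, with 4.45 and 3.76 in dioxane emigrants against 4.05 in dioxane thymocytes. Tiparp, a mono-ADP-ribosyltransferase that limits AHR, read 6.66 and 9.82 against 9.35 with TCDD, and 6.66 and 6.33 against 6.29 with dioxane. TCDD emigrant array 2 was close to TCDD thymocytes for these genes, and array 1 close to the dioxane arrays. Ahr itself read 7.09 and 8.56 in TCDD emigrants against 8.93 in TCDD thymocytes. Of 8 genes of the AHR complex, 0 were at least 2-fold apart in both arrays. With so few genes that count cannot be told apart from the shares over all genes, 1.57% higher and 0.847% lower. The higher 3 targets were Xdh (xanthine dehydrogenase), Nfe2l2 (the antioxidant regulator NRF2) and Serpinb2 (a protease inhibitor of macrophages). Serpinb2 read 6.47 and 5.08 in TCDD emigrants against a dim 3.75 in TCDD thymocytes, at least 2.01 and 0.61 higher. Its 2-fold difference in array 2 therefore rests on a dim value. Nfe2l2 read 9.31 and 9.06 against 7.84 with TCDD and 9.20 and 7.95 against 7.47 with dioxane.

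**Figure D3:**
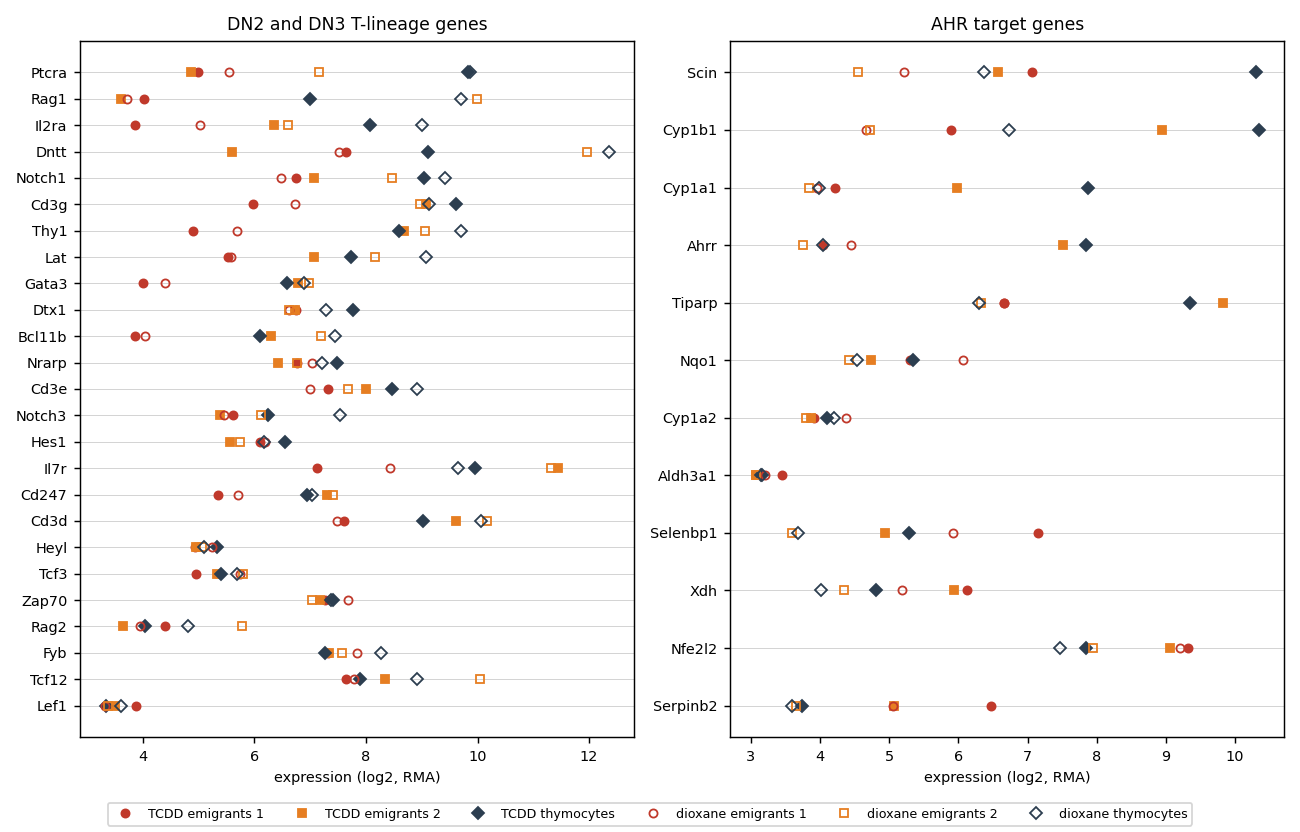
Log2 level on each of the 6 arrays for the 25 measured DN2 and DN3 genes (left) and the 12 measured AHR targets (right), ordered by the mean TCDD difference. Ptcra, Rag1, Il2ra, Dntt, Notch1 and Dtx1 have both filled emigrant symbols at least 1 log2 unit below the filled thymocyte diamond, and Ahrr and Tiparp have TCDD emigrant array 1 at the level of the open dioxane symbols.

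Of the 12 lowest genes in emigrants, Cntnap2, Dsp, Cdh1, Mpzl2 and Ptprf code for proteins of cell contacts, a grouping made after their values were seen. Cntnap2, a neurexin-family adhesion protein best known from nerve, read a dim 4.32 and 4.05 in TCDD emigrants against 9.09 in TCDD thymocytes, differences of -4.17 and -4.76 or further down. Dsp (desmoplakin), which ties desmosomes to keratin filaments, read 3.89 and 4.77 against 8.73, a difference of -3.81 or further down for array 1 and of -3.97 for array 2, and 2 of its 3 probe sets had these directions. Cdh1 (E-cadherin), a calcium-dependent adhesion protein, read a dim 3.59 and 4.33 against 7.42, differences of -2.50 and -3.08 or further down. All 3 genes were high in the TCDD thymocyte array and at or near the dim range in both emigrant arrays. Dioxane thymocytes lacked the high level of 2 of these genes, with Dsp at 4.24 and Cdh1 at 4.33. Mpzl2, an adhesion protein first found in thymus epithelium, read a dim 3.11 and 3.18 against 6.65 with TCDD, differences of -1.73 and -2.32 or further down, and a gap in the same direction stood between dioxane emigrants at 3.21 and 4.02 and dioxane thymocytes at 7.36. With the mean of a gene's probe sets the mean TCDD difference was -2.54 for Cntnap2 (-4.91 with the brightest), -2.89 for Dsp (-4.40) and -1.64 for Mpzl2 (-3.50). The receptor phosphatase gene Ptprf read 5.15 and 5.48 against 8.10, directions that 2 of its 3 probe sets had. Other junction genes were also picked after values were seen. Jup, Pkp2, Dsg2, Dsc2, Ctnna1 and Ctnnb1 were within 2-fold of thymocytes in both emigrant arrays. Of these, Pkp2 was dim on all 6 arrays and so could not show a difference. Dsg2 and Dsc2 were dim in TCDD emigrant array 1, and 1 of the 6 probe sets of Dsg2 had its directions. Jup (plakoglobin), a partner of desmoplakin, read 5.33 and 5.09 in TCDD emigrants against 5.04 in TCDD thymocytes, and Ctnnb1 (beta-catenin), which binds E-cadherin, 10.35 and 10.90 against 10.30.

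Markers of thymic epithelium as a list stood lower by less. Of 18 measured, 2 (Cdh1 and Epcam) were at least 2-fold lower in both arrays and 0 higher, 12 were lower in both by any amount, and the medians were -0.30 and -0.20. The mean level of that list was 4.63 and 4.66 in TCDD emigrants against 5.12 in TCDD thymocytes, near the bacterial controls on all 3. Epcam, an adhesion protein of epithelium that thymocytes also carry, read 5.44 and 4.89 against 7.35. Fibroblast and endothelium genes were lower in array 1 alone, with 10 of 27 measured at least 2-fold lower there and 1 in array 2. The part of stromal RNA in these differences was not tested.

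Of 16 integrin chains measured, 1 was at least 2-fold higher in both TCDD emigrant arrays and 1 lower. Over all genes the shares were 1.57% and 0.847%, so counts in lists this short carry little weight. Itgae (CD103), which binds E-cadherin on epithelium, read 5.46 and 7.82 in TCDD emigrants against 9.18 in TCDD thymocytes, while dioxane emigrants read 5.02 and 7.66 against 7.08. Itgb2, the shared chain of leukocyte integrins, was higher, at 10.05 and 9.15 against 8.01. The other 14 of 16 integrin genes measured were not at least 2-fold apart in both arrays. Of 16 egress and homing receptors, 0 were at least 2-fold apart in both, a count that cannot be told apart from the shares over all genes. S1pr1, the sphingosine phosphate receptor through which mature thymocytes leave the adult thymus, read 5.82 and 6.22 against 6.47. Ccr9, a thymus homing receptor for CCL25, read 7.88 and 9.20 against 9.66. Both genes were lowest in array 1 and highest in thymocytes. Cxcr6, a receptor for CXCL16, lay on opposite sides in the emigrant arrays, at 4.68 and 9.87 against 7.58.

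Genes of cytotoxic granules differed from each other. Gzma, a granule protease of killer and innate-like T cells, read 9.37 and 9.13 in TCDD emigrants against 12.14 in TCDD thymocytes. Gzmb read 5.75 and 9.32 against 10.22, so array 2 came near the thymocyte level. Prf1 (perforin) read 4.64 and 4.75 against 5.08, within 2-fold in both arrays. Of 25 NK and innate lymphoid genes measured, 1 was at least 2-fold higher in both arrays (Tyrobp, a signalling adaptor that myeloid cells also carry) and 2 lower (Gzma and Ccl5), with medians of -0.44 and -0.04. With dioxane the medians were 0.46 and 0.99, and 8 of the 25 were at least 2-fold higher in both dioxane emigrant arrays. The mean level of the list was 6.19 and 6.70 in TCDD emigrants and 6.25 and 6.62 in dioxane emigrants. In thymocytes that level was 6.73 with TCDD and 5.57 with dioxane. In B-lineage and plasma-cell genes, 1 of 16 was lower in both, Pou2af1, a coactivator of octamer-binding factors, at a dim 4.56 and 3.71 against 7.15. These are differences of -2.23 and -2.82 or further down.

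Among growth and stress genes, sterol and fatty acid synthesis had 4 of 23 measured at least 2-fold lower in both TCDD emigrant arrays and 0 higher, with medians of -0.55 and -0.52. Fdft1, which makes squalene, read 4.75 and 5.51 in TCDD emigrants against 7.56 in TCDD thymocytes, and Scd2, a fatty acid desaturase, 7.95 and 9.11 against 10.29. Array 1 was the lowest of the 3 for both. Immediate-early genes had 4 of 30 lower in both and 1 higher. Egr1, induced by receptor signals within minutes, read 9.62 and 10.15 against 11.28, and Fosb 4.76 and 5.69 against 7.16, while the stress factor Atf3 read 6.37 and 6.87 against 5.02. Interferon-response genes were higher mainly in array 2, with 8 of 25 at least 2-fold higher there, 3 in array 1 and 2 in both. Oas1a, a sensor of double-stranded RNA, was even, at 7.63 and 7.51 against 6.14. Of 31 cell cycle genes, 1 was at least 2-fold apart in both, where 1.57% of all genes were higher and 0.847% lower. It was Mki67, a marker of dividing cells, which read 9.66 and 9.34 in TCDD emigrants against 7.70 in TCDD thymocytes. Its dioxane values were 10.04 and 10.15 in emigrants against 9.97 in thymocytes, so the TCDD thymocyte array was the low one.

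**Figure D4:**
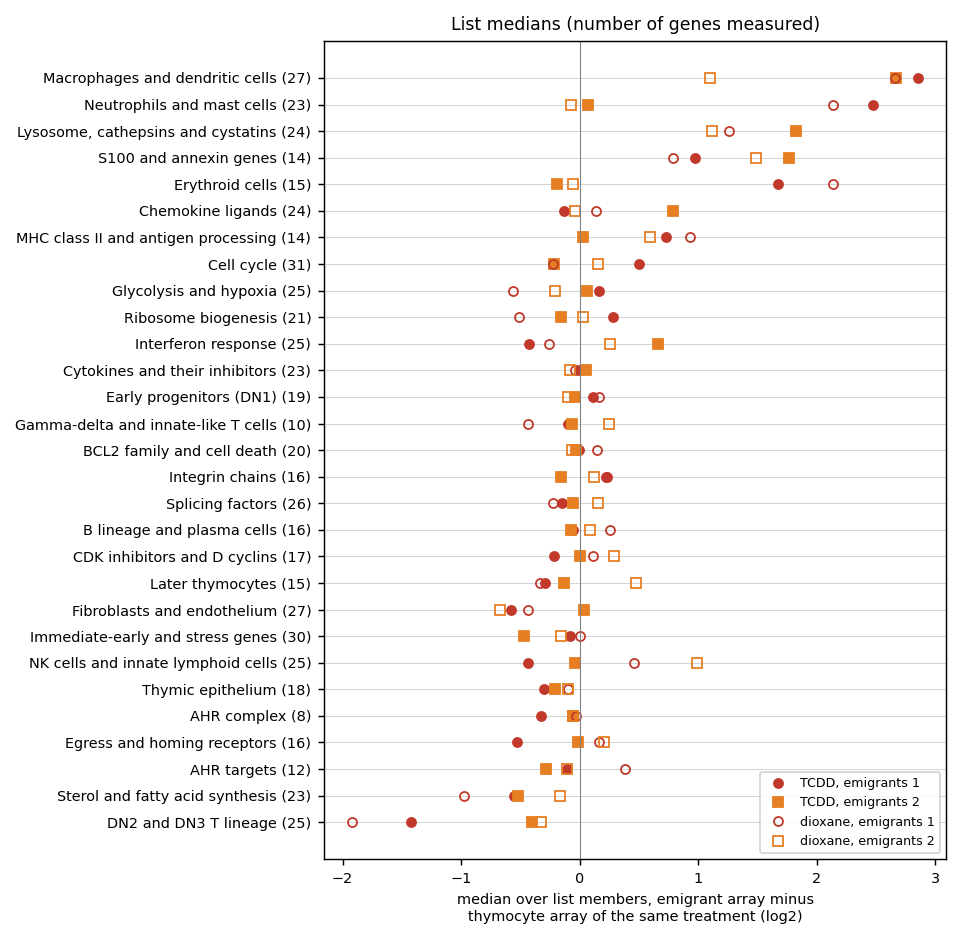
Median log2 difference of each emigrant array from the thymocyte array of the same treatment over the measured members of 29 gene lists (filled TCDD, open dioxane; red circles array 1, orange squares array 2). Macrophage, lysosome and S100 and annexin lists lie at the right in both arrays under TCDD and, by less, under dioxane. Neutrophil and erythroid lists lie at the right in array 1 alone, and the DN2 and DN3 list at the left.

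The same comparison with dioxane shares no array with the one under TCDD. In dioxane emigrants 152 genes (1.23%) were at least 2-fold higher in both arrays than in dioxane thymocytes and 137 (1.11%) at least 2-fold lower. Of the 194 genes higher under TCDD, 61 (31.4%) were also among the 152, which is 40.1% of those. Of the 105 lower under TCDD, 23 (21.9%) were among the 137, which is 16.8% of those. No gene was higher in both with TCDD and lower in both with dioxane, and 1 gene, Ccl5, was lower with TCDD and higher with dioxane. The macrophage list had medians of 2.66 and 1.10 with dioxane, with 16 of 27 at least 2-fold higher in both arrays, against 2.86 and 2.67 and 20 of 27 with TCDD. Lysosomal genes had dioxane medians of 1.26 and 1.12, with 9 of 24 at least 2-fold higher in both arrays. For S100 and annexin genes these were 0.79 and 1.49, with 6 of 14, the same count as with TCDD. Sterol and fatty acid genes had dioxane medians of -0.98 and -0.17, with 2 of 23 at least 2-fold lower in both arrays.

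The difference of the differences was tested with the same limma fit. It called none of 12393 genes (0%), with a smallest adjusted p of 1 and 97 genes at an unadjusted p under 0.05 (56 higher with TCDD, 41 lower), and its median standard error was 0.50 log2 units. The 6 higher genes farthest beyond their dioxane differences were Ccl9, Clec4d, Ccl6, Ms4a6d, Apoe and Lyz2. Ccl9 read 7.68 and 8.18 in dioxane emigrants against 5.64 in dioxane thymocytes, so its difference was 3.17 ± 0.47 larger with TCDD. The dioxane emigrants also lay above their thymocytes, by less. Clec4d read 6.89 and 6.44 against 5.19 with dioxane, a difference 2.89 ± 0.51 larger with TCDD. Ccl6 read 9.66 and 9.96 against 6.54 with dioxane, a difference 2.48 ± 0.42 larger with TCDD. For Ccl9, Clec4d and Ccl6 the thymocyte arrays of the 2 treatments lay within 1 log2 unit of each other and the TCDD emigrants stood above the dioxane emigrants. Ms4a6d, a membrane protein of macrophages, read 8.55 and 8.85 in TCDD emigrants against 4.91 in TCDD thymocytes, and 6.43 and 6.47 in dioxane emigrants against 4.60 in dioxane thymocytes. Of its 3 probe sets, 2 had the TCDD directions, and its mean TCDD difference of 3.79 was 2.25 with their mean.

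The 6 lower genes farthest beyond dioxane were Dsp, Cdh1, Pou2af1, Cntnap2, Ccl5 and Atp1b1. In Dsp, Cdh1 and Pou2af1 the emigrants were low with either treatment and the TCDD thymocytes alone were high. Pou2af1 read 4.75 and 4.78 in dioxane emigrants against a dim 4.46 in dioxane thymocytes. Its difference differed by -3.32 ± 0.62 with TCDD, a value that takes dim readings as they stand. Cntnap2 read a dim 4.24 and then 4.81 in dioxane emigrants against 6.18 in dioxane thymocytes. Atp1b1, the beta subunit of the sodium pump, read 8.32 and 7.93 in TCDD emigrants against 10.57 in TCDD thymocytes, and 9.85 and 9.70 in dioxane emigrants against 9.93 in dioxane thymocytes. All 5 of its probe sets had these directions under TCDD, and its mean TCDD difference of -2.45 was -1.43 with their mean. Ccl5 read 10.18 and 8.79 in dioxane emigrants against 7.61 in dioxane thymocytes, so the TCDD thymocyte array at 11.28 was the highest of the 6.

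Among the 39 genes with opposite directions, 33 were higher in array 2 and 6 in array 1. Car3, a carbonic anhydrase of fat and muscle, read 4.25 and 10.21 in TCDD emigrants against 7.62 in TCDD thymocytes. Abi3bp, a matrix-binding protein, read 3.89 and 8.34 against 6.30, and Npl, an enzyme that breaks down sialic acid, 5.17 and 8.91 against 6.83. Higher in array 1 were Cd24a, a surface protein of immature thymocytes and red-cell precursors, at 11.22 and 7.08 against 8.90, and Tgm2, a transglutaminase of macrophages, at 10.08 and 6.43 against 8.12. For these genes the thymocyte array lay between the emigrant arrays, so their mean differences describe neither array.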

How the data were processed

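The deposited values are log2 expression values from Affymetrix arrays, summarised by the authors with RMA per the submitters' processing notes, with the affy package of Bioconductor per the design text. RMA corrects background and normalises across arrays, gives no detection calls and understates fold changes of dim genes. No versions are given in the sources used here. RNA was amplified from pooled cells before hybridisation, per the labels' protocols.

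The values were used as deposited. The 22690 probe sets held 64 controls, 691 that name several genes and 1555 that name none, all set aside, and 20380 that name 1 gene. Each gene took its brightest probe set by the mean of all 6 arrays (12393 genes, 4956 with more than 1 probe set). Each TCDD emigrant array was set against the TCDD thymocyte array, with a gene counted where both differences were at least 2-fold in the same direction. Limma 3.58.1 in R 4.3.3 fitted 4 group means over all genes with 2 residual degrees of freedom (lmFit, eBayes, Benjamini-Hochberg over all genes, adjusted p under 0.05), and was tested on simulated data.

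The comparison and the 29 gene lists (568 genes measured) were chosen with earlier results of these data known. The genes named were the 12 per direction with the largest smaller-of-2 difference, 6 per direction farthest beyond dioxane, up to 6 with opposite directions, and members of the lists. Names of clones or predicted genes (1 among the lower genes) were not used. Alternatives covered normalization, probe set choice, dim genes, fold, floor, a replicate block and leaving out each emigrant array.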

Additional observations from a re-analysis of the deposited data

Results flagged for a closer look

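In 4 gene lists both emigrant arrays lay on the same side of 0 under TCDD and both on the opposite side under dioxane, as medians of the difference from the thymocyte array of the same treatment. This opposition between treatments was not tested. All genes had medians of -0.04 and -0.08 under TCDD. Against that -0.08, the array 2 medians of the NK, egress and B-lineage lists under TCDD were not lower. The B-lineage median also moved by more than the spread of the emigrant arrays in every alternative. For NK and innate lymphoid genes the median over genes of the TCDD difference minus the dioxane difference was -1.06, with list medians of -0.44 and -0.04 under TCDD and 0.46 and 0.99 under dioxane. For egress and homing receptors it was -0.43, with -0.53 and -0.01 under TCDD and 0.17 and 0.20 under dioxane. For B-lineage and plasma-cell genes it was -0.24, with -0.06 and -0.07 under TCDD and 0.26 and 0.09 under dioxane. For glycolysis and hypoxia genes it was 0.52, with 0.16 and 0.06 under TCDD and -0.56 and -0.21 under dioxane. Aldoa was the 1 gene of the 25 glycolysis and hypoxia genes measured that was at least 2-fold higher in both TCDD emigrant arrays. Each of these contrasts rests on 1 thymocyte array per treatment. The mean level of the NK list was 6.19 and 6.70 in TCDD emigrants and 6.25 and 6.62 in dioxane emigrants. In thymocytes that level was 6.73 with TCDD and 5.57 with dioxane. Egress receptors had thymocyte levels of 6.75 with TCDD and 5.93 with dioxane, and B-lineage genes 5.91 and 5.31. Glycolysis genes went the other way, at 6.75 and 7.08.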

How the results depend on the processing

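Of 299 genes at least 2-fold apart in both TCDD emigrant arrays, 194 were higher (64.9%). The count lay between 210 and 304 with cyclic loess, quantile normalization, arrays centred on their medians, the mean of a gene's probe sets, brighter genes alone and a floor at the bacterial controls. It was 454 with every probe set on its own, 858 at a fold of 1.5 and 71 at a fold of 4, which counts more or fewer features by construction. With 1 emigrant array left out it ranged from 821 (without array 1) to 1109 (without array 2), since 1 array then decides alone. Limma called 0 genes between the cell sources in all alternatives. Its smallest adjusted p ranged from 0.076 to 0.526 with all arrays of the fit kept, at 344 genes under an unadjusted p of 0.05 in the reported fit, and from 0.526 to 0.683 with 1 array left out. For the TCDD against dioxane difference it called 0 genes in 14 alternatives, with a smallest adjusted p of 1 and 97 genes under an unadjusted p of 0.05 in the reported fit. Of 145 list medians recomputed, 41 moved by more than the spread of the emigrant arrays, and 0 changed sign among the 4 lists with both medians at least 0.5 on 1 side. Of 162 differences of named genes recomputed, 14 moved and 0 changed sign. With the mean of a gene's probe sets, Ccl9, Slc40a1, Ms4a6d, Cntnap2, Dsp, Mpzl2 and Atp1b1 were more than 1.5 times smaller, at 2.98, 2.98, 2.25, -2.54, -2.89, -1.64 and -1.43. The cause of these shifts was not tested.

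With the replicate number as a replicate block, limma called 0 genes (smallest adjusted p 0.0852), and 0 with the block within emigrants (0.114). The numbers were not taken as pairs: there are 2, and no label ties them to a shared batch. Over 12393 genes, the difference of number 1 from number 2 correlated between TCDD and dioxane emigrants at r = 0.560.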

Other observations

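The genes here were chosen after their values were seen. Adipoq, the fat-cell hormone adiponectin, read 3.64 and 7.35 in TCDD emigrants against 5.05 in TCDD thymocytes, and 3.66 and 3.82 in dioxane emigrants against 5.28 in dioxane thymocytes. Fabp4, the fatty acid binding protein of fat cells and macrophages, read 4.65 and 7.56 against 6.43 with TCDD, and 4.24 and 4.73 against 6.01 with dioxane. With Car3 above, these genes were higher in both thymocyte arrays and in TCDD emigrant array 2 than in the other emigrant arrays.

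The Y-linked gene Eif2s3y read 3.35 and 7.62 in TCDD emigrants against 6.11 in TCDD thymocytes, and 7.53 and 7.34 in dioxane emigrants against 5.20 in dioxane thymocytes. Xist, made from the inactive X chromosome, read 10.67 and 10.51 against 10.94 with TCDD, and 8.92 and 10.57 against 10.41 with dioxane. Eif2s3y was dim in TCDD emigrant array 1 alone. Of other Y-linked genes, Kdm5d read 4.64 and 4.51 in TCDD emigrants against 4.92 in TCDD thymocytes, and Uty 3.65 and 3.72 against 3.90. Uty was dim on all 3 TCDD arrays, and Kdm5d was at or near the dim range. Neither gene can therefore show whether array 1 differs.

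Jchain, which links antibody molecules, read 9.78 and 4.08 in TCDD emigrants against 8.40 in TCDD thymocytes, and 10.39 and 3.90 in dioxane emigrants against 4.28 in dioxane thymocytes.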
